A study of Mus musculus with 18 samples.

Results

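The Foxa2 compartment is a stretch of 350 kb of mouse chromosome 2, at chr2:147614794-147964405 (NCBIM37, mm9), around the promoter of Foxa2. Its members are the DpnII fragments of that stretch as seen from the Foxa2 promoter by NG Capture-C, leaving out the captured zone at chr2:147871364-147873704 and 2 kb to each side of it. This gave 854 fragments of the 68959 on the chromosome that are listed with a value, 630 on the left and 224 on the right of the zone. Foxa2 lies on the minus strand, so left is the downstream side, which runs past the gene body for 256.57 kb, and right is the upstream side, which ends after 90.701 kb. Within the reach of the right side the 2 sides hold like numbers of fragments, 214 on the left and 224 on the right. The ends of the compartment were read by eye from a drawn contact profile in earlier work on these data, so they carry a reading error.

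Embryonic stem cells (ESC, strain 129/Sv//EV, day 0), definitive endoderm made from such cells (DE, strain 129/Sv//EV, day 5 of differentiation) and erythrocytes (strain C57BL/6) gave 3 libraries each. DE came from embryoid bodies moved on day 2 into medium with 20 ng/ml ActivinA and 20 ng/ml EGF, whereas ESC were kept with LIF. The erythrocytes came from spleens of mice given 3 doses of phenylhydrazine 12 h apart, a treatment that destroys red cells and fills the spleen with new ones, and since they differ from the other groups in strain as well, effects of strain and of cell type cannot be told apart there. The study calls the replicates biological, but nothing in the labels says whether they came from separate cultures or animals. P-values therefore speak for these libraries only, and those of limma draw largely on a spread shared by features of like level. Contact data hold no marker genes against which to check the cell types.

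Foxa2 encodes a forkhead transcription factor that binds compacted chromatin and is needed for endoderm, node and notochord. It is silent and marked by Polycomb in ESC, is switched on in DE and is silent in red cells. In Capture-C crosslinked chromatin is cut by DpnII and ligated, and fragments ligated to a chosen promoter are pulled down and counted, so each count is a contact of the promoter with 1 fragment. A chromatin compartment in this sense is a stretch within which such contacts are frequent and beyond which they drop, often with inward-facing sites for the insulator protein CTCF near its ends. Contacts also fall steeply with distance from the viewpoint, which is why the sides were compared at equal distance.

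The annotation places few genes in the compartment. Foxa2 itself (ENSMUSG00000037025, chr2:147868613-147872705, minus strand) starts in the captured zone. The long noncoding transcript 9030622O22Rik (ENSMUSG00000086141, chr2:147770476-147865939, minus strand) starts 5.425 kb left of the zone and covers 95.5 kb of the left side. A copy of the U6 spliceosomal RNA (ENSMUSG00000065791, chr2:147700508-147700614) lies 171 kb to the left, and the pseudogene Gm14108 (ENSMUSG00000083750, chr2:147897082-147897575) starts 23.9 kb to the right. No other protein-coding gene overlaps it.

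The sequences below show the end of the captured promoter fragment and some fragments named further on, and all were read from NCBIM37. The first is the stretch upstream of the Foxa2 start, out to the DpnII cut that ends the captured promoter fragment, at chr2:147872706-147872950 on the minus strand. The next 3 are neighbouring fragments just upstream of the 9030622O22Rik start that lost contact in DE, and the last is a short fragment on the right that gained contact, all on the plus strand. Capitals mark the GATC cut of DpnII and any match to the forkhead motif TGTTTAC, the T-box motif AGGTGT or the Smad motif CAGACA on either strand.
Foxa2 upstream: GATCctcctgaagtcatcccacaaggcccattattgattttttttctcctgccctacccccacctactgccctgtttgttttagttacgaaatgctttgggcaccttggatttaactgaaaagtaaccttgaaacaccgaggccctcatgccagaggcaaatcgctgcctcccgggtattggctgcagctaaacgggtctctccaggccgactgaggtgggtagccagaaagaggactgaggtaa
fell, left 5.22 kb, chr2:147866095-147866203: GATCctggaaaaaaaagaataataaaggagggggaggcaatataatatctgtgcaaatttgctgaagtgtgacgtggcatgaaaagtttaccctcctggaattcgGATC
fell, left 5.14 kb, chr2:147866200-147866250: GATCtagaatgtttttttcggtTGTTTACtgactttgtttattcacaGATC
fell, left 5.06 kb, chr2:147866247-147866361: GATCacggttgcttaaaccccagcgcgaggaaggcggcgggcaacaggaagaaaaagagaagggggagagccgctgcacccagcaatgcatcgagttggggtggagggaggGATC
rose, right 51.3 kb, chr2:147924958-147925032: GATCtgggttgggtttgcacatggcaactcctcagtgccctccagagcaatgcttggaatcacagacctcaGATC
Of these 5 stretches, 1 held a forkhead match and none held a T-box or Smad match. A match is a description of letters and not a bound site.

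Interactions of the Foxa2 viewpoint numbered 11426 to 46823 in the ESC and DE libraries and 5005 to 22474 in those of erythrocytes. Of these, between 60.2% and 70.7% lay on chromosome 2 in ESC and DE. In erythrocytes that share was 44.7%, 79.4% and 42.8%, so erythrocyte replicate 2 stood apart, and in replicate 3 the 2 kb around the zone took 40.9% of the chromosome 2 interactions against 15.5% and 13.0% in the others. All values below are reads per 100000 interactions on chromosome 2, so a share that rises in one place is matched by a fall elsewhere. The background is low: the level of interactions on other chromosomes would give between 0.0525 and 0.270 per 100000 in a 5 kb bin, and the Eomes and Lhx1 promoters, on other chromosomes, had 17 and 16 reads in the whole compartment against 38716 from Foxa2.

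With the 2 kb around the zone left out, the compartment held a larger part of the promoter's contacts in DE than in ESC. In erythrocytes it held a smaller part. In ESC its share of chromosome 2 interactions was 31.3%, 31.2% and 29.3%, in DE 38.7%, 37.2% and 37.4%, and in erythrocytes 17.5%, 21.3% and 17.0%. The 3 sets of libraries did not overlap, and the widest Wilson 95% interval of a library ran from 20.1% to 22.6%, which covers counting error only. The mean rose by 7.16 percentage points from ESC (30.6% ± 1.13, SD, n = 3) to DE (37.7% ± 0.793, SD, n = 3; exact two-sided permutation test, p = 0.1), and erythrocytes lay 12.0 points under ESC (18.6% ± 2.38, SD, n = 3; exact two-sided permutation test, p = 0.1), where 0.1 is the smallest p that 3 against 3 allow. Without erythrocyte replicates 2 and 3 the latter difference was -13.3 and -11.2 points. With all interactions as the total the rise in DE was 2.61 points, and with only those within 2 Mb to each side it was 16.2 points. Under these totals erythrocytes differed from ESC by -10.2 and -5.81 points, and within 2 Mb their libraries overlapped those of ESC. The 2 kb around the zone, in the total but not in the share, took 11.6% ± 0.418 (SD, n = 3) in ESC and 6.08% ± 0.291 in DE. The rest of the chromosome took 57.8% ± 1.03 and 56.2% ± 0.945, so the rise of 7.16 points was matched mainly by a fall next to the zone. In the erythrocyte libraries that rest took 67.0%, 65.7% and 42.1%, and the 2 kb took 15.5%, 13.0% and 40.9%.

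**Figure D1:**
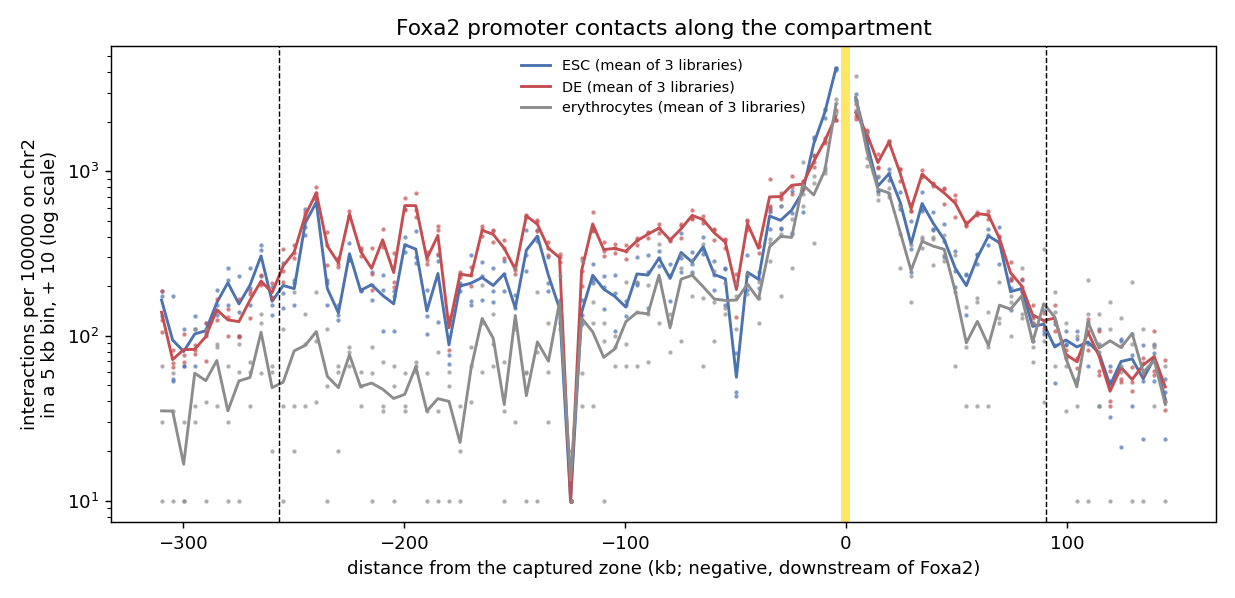
Mean Foxa2 promoter contacts in 5 kb bins for ESC, DE and erythrocytes, as reads per 100000 chromosome 2 interactions plus 10 on a log axis, against distance from the captured zone in kb. Lines are means and points the libraries, negative distances are downstream of Foxa2, the gap 122 to 127 kb to the left is a bin without reads in ESC and DE, and dashed lines mark the ends of the compartment. The ESC and DE lines cross close to the zone, where ESC is higher on the left, and the erythrocyte line drops away along the far left.

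The gain in DE was not spread evenly. Windows were laid on each side at 2 to 20 kb (near), 20 to 90.701 kb (middle) and, on the left alone, 90.701 to 256.57 kb (far). In the near left window, which holds the 3' end of Foxa2 and the start of 9030622O22Rik, the 3 ESC libraries had 8410, 8758 and 8038 reads per 100000 and the 3 DE libraries 5063, 5231 and 5553. Every DE library was lower than every ESC library, with a log2 fold change of -0.67 (SE 0.065, adjusted p = 1.1e-22 in limma). In the near right window the libraries overlapped, at 5622, 5858 and 5358 in ESC and 6296, 5709 and 5969 in DE, and the log2 fold change of 0.09 (SE 0.068, adjusted p = 0.49 in limma) did not pass the threshold. It turned to -0.04 when all interactions were taken as the total.

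Beyond 20 kb contacts rose in DE on both sides and to like degrees. The middle left window went from 4752, 4225 and 4102 in ESC to 7173, 6805 and 6759 in DE, a log2 fold change of 0.67 (SE 0.070, adjusted p = 1.5e-19 in limma). The middle right window went from 5410, 5048 and 4323 to 8025, 7840 and 7603, a log2 fold change of 0.67 (SE 0.066, adjusted p = 9.7e-22 in limma). The far left window, which lies almost wholly beyond the end of 9030622O22Rik, went from 7105, 7290 and 7458 to 12097, 11633 and 11468, a log2 fold change of 0.69 (SE 0.057, adjusted p = 1.8e-30 in limma). In all 3 windows each DE library was higher than each ESC library. Per 100000 interactions the far left gained 4449 reads, the middle right 2896 and the middle left 2553, while the near left fell by 3119.

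As a share of the compartment's own contacts, the near left fell from 27.5% ± 0.609 (SD, n = 3) in ESC to 14.0% ± 0.885 in DE, and the far left rose from 23.9% ± 1.44 to 31.1% ± 0.332. The 2 kb next to the zone, which are no members, also took less in DE, 6.08% ± 0.291 of chromosome 2 interactions against 11.6% ± 0.418 in ESC. The limma fit lets the spread vary with the level and shares it among features of like level. Its SE and p-values are thus not those of 3 libraries against 3 in a single window. With a prior spread that is the same at all levels, none of these windows passed the threshold (adjusted p between 0.29 and 0.31 in limma for the 4 that otherwise did). With all 3 cell types in the fit those 4 had adjusted p between 0.00053 and 0.011 in limma. edgeR on the recovered reads gave adjusted p between 2.9e-23 and 4.9e-18 for those 4 windows and 0.58 for the near right.

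**Figure D2:**
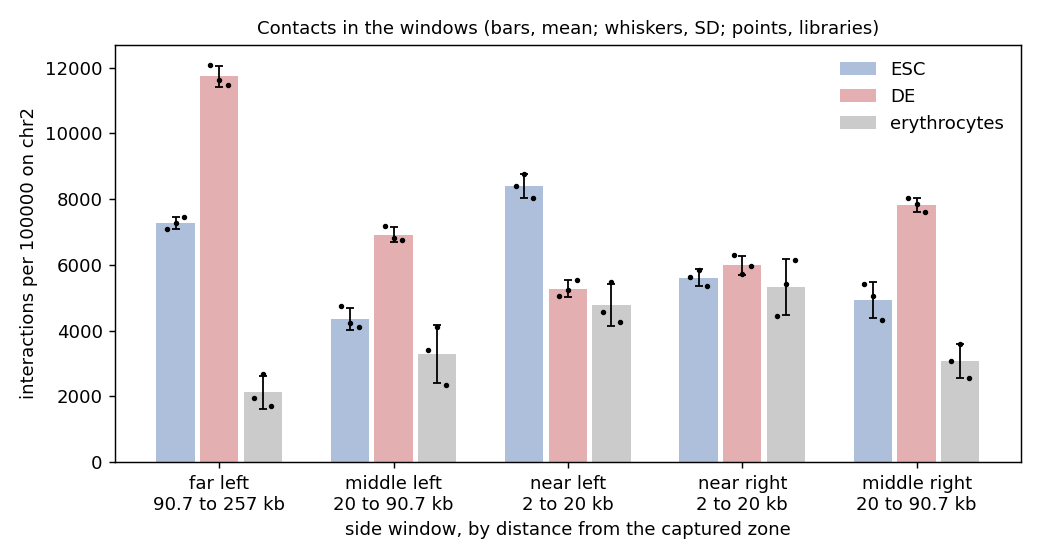
Reads per 100000 chromosome 2 interactions in the 5 side windows for ESC, DE and erythrocytes, where bars are means, whiskers SD and points the 3 libraries. The near left bar is the one in which DE is below ESC, and in the far left bar erythrocytes drop to 2122 against 7284 in ESC and 11733 in DE.

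At equal distance the 2 sides were unequal in ESC and the other way round in DE. From 2 kb to 90.701 kb the left had 1.19, 1.19 and 1.25 times the reads of the right in the ESC libraries, and 0.854, 0.888 and 0.907 times in the DE libraries. The log2 of left over right was 0.28 ± 0.042 (SD, n = 3) in ESC and -0.18 ± 0.044 in DE, a difference of -0.46 (p = 0.1 in the exact two-sided permutation test, which can go no lower). Summed over each range, the difference lay in the near windows. Beyond 20 kb single pairs of 5 kb bins at equal distance went either way, such as -0.51 at 52 to 57 kb and 0.83 at 67 to 72 kb (adjusted p = 0.60 and 0.26 in limma). From 2 to 20 kb the log2 of left over right was 0.58 ± 0.0025 (SD, n = 3) in ESC and -0.18 ± 0.12 in DE, a difference of -0.76 (exact two-sided permutation test, p = 0.1). From 20 kb outward it was -0.17 ± 0.091 in ESC and -0.18 ± 0.023 in DE (n = 3 each), a difference of -0.0054 (exact two-sided permutation test, p = 1), so both cell types had slightly more contacts on the upstream side there.

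Mirrored rings of 5 kb set each left bin against the right bin at the same distance. From the 17 rings inside the right side's reach limma called 0 for a side difference that differed between DE and ESC (0 also at an unadjusted p under 0.05), against 7.07% of the 198 rings tested out to 1 Mb. edgeR's interaction of side and cell type on the reads, chosen after the limma result was known, called 4 of the 17, against 10.1% of all rings. The 3 nearest rings, from 2 to 17 kb, moved to the right in DE, with log2 differences of -0.68 (adjusted p = 4.6e-05 in edgeR), -0.74 (adjusted p = 8.0e-05 in edgeR) and -0.83 (adjusted p = 0.00011 in edgeR). The ring from 67 to 72 kb moved to the left by 0.89 (adjusted p = 0.018 in edgeR): its left bin, inside 9030622O22Rik, rose from 271 ± 39.1 to 530 ± 37.5 (SD, n = 3) reads per 100000, while its right bin stood at 358 ± 92.1 and 380 ± 17.6. The most unequal ring in ESC, from 47 to 52 kb, had more contacts on the right in both cell types, with a log2 of left over right of -2.23 ± 0.19 (SD, n = 3) in ESC and -1.77 ± 0.27 in DE.

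**Figure D3:**
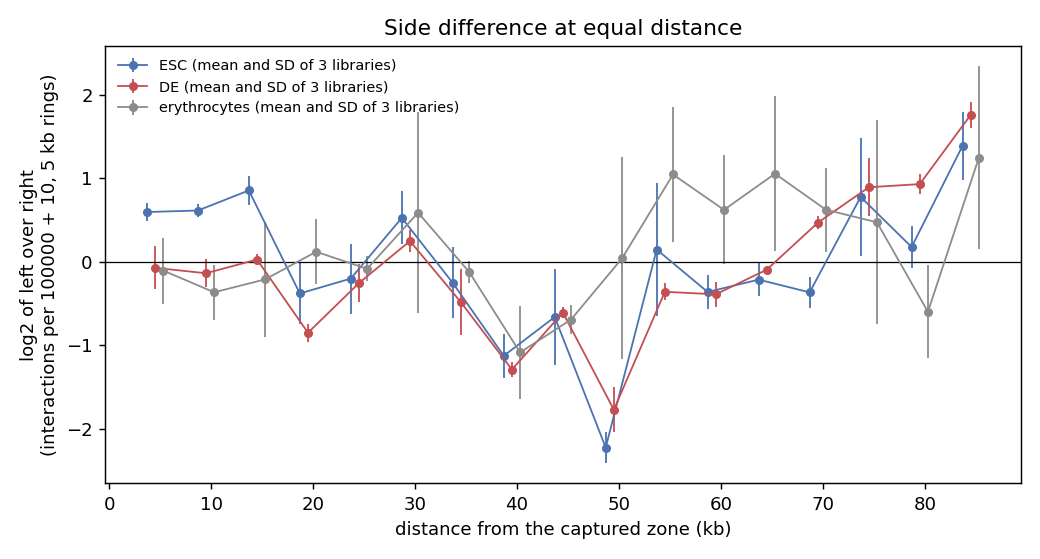
The log2 of left over right reads in mirrored 5 kb rings against distance from the captured zone in kb, for ESC, DE and erythrocytes, with points for the mean and whiskers for the SD of 3 libraries and 0 marking equal sides. The ESC mean lies above the DE mean from 2 to 42 kb, by most in the 3 rings nearest the zone, and both dip at 47 to 52 kb, to -2.23 in ESC and -1.77 in DE.

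Placed in 5 kb bins, the gain in DE covered most of the compartment outside the near left. Of 67 member bins 66 could be tested, and 42 rose and 4 fell in DE (limma, adjusted p under 0.05), where 5.72% of the 804 bins tested on chromosome 2 rose and 5.97% fell. These shares include the members, and of the 738 other bins 4 rose and 44 fell. The median log2 fold change was 0.71 over the member bins and 0.12 over all bins tested. By window, rises were called in 0 of 4 bins of the near left, 2 of 4 of the near right, 11 of 14 of the middle left, 8 of 13 of the middle right and 21 of 31 of the far left. With all 3 cell types in the fit, or with a constant prior spread, no rise passed the threshold, while edgeR called 44 and DESeq2 42. The bin that could not be tested, 122 to 127 kb to the left with 24 fragments, had 0 reads in ESC, which allows up to 9.94 reads per 100000, and 0 in DE, which allows up to 4.32, and 1 read in erythrocytes.

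The falls sat beside the promoter. The left bin from 2 to 7 kb, chr2:147864364-147869363, had 4105, 4253 and 4226 reads per 100000 in ESC and 2034, 2045 and 2358 in DE, a log2 fold change of -0.97 (SE 0.088, adjusted p = 2.2e-25 in limma). This bin holds the start of 9030622O22Rik and had the most reads of any member bin in ESC. The next bin outward, inside the body of that transcript, went from 2387, 2334 and 2085 to 1508, 1591 and 1465, a log2 fold change of -0.57 (SE 0.11, adjusted p = 3.3e-06 in limma). On the right the bin from 2 to 7 kb went from 2956, 2700 and 2679 to 2559, 2161 and 2068, a log2 fold change of -0.30 (SE 0.095, adjusted p = 0.016 in limma) that lost the threshold under 8 of 17 alternatives. In these bins the cell types did not overlap, whereas in the left bin from 12 to 17 kb, also called as lower (-0.35, adjusted p = 0.038 in limma, lost under 9 of 17 alternatives), they did.

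The largest proportional rises were in bins with few reads or in the middle of a side. In the left bin from 47 to 52 kb, chr2:147819364-147824363, within 9030622O22Rik, ESC had 33.5, 35.8 and 69.1 and DE 195, 229 and 121 reads per 100000, a log2 fold change of 1.78 (SE 0.36, adjusted p = 2.1e-05 in limma). The bin holds only 4 fragments. Erythrocytes had 199, 101 and 166, all above ESC and overlapping DE (over ESC 1.56, adjusted p = 0.058 in limma; past the threshold in edgeR and 3 other alternatives). Its mirror on the right, chr2:147920705-147925704, went from 190, 236 and 318 to 712, 659 and 519, a log2 fold change of 1.33 (SE 0.20, adjusted p = 1.4e-09 in limma). The bin after it went from 223, 229 and 124 to 453, 461 and 482 (1.28, SE 0.22, adjusted p = 4.0e-07 in limma). In these 3 bins every DE library was higher than every ESC library.

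Rises on the far left were broad. The bin from 207 to 212 kb went from 166 ± 64.2 to 373 ± 53.2 reads per 100000 (SD, n = 3; log2 fold change 1.19), the bin from 187 to 192 kb from 132 ± 43.9 to 285 ± 26.1 (1.10), and the bin from 157 to 162 kb from 192 ± 50.6 to 404 ± 36.5 (1.06). The bin from 97 to 102 kb, which holds the 3' end of 9030622O22Rik, went from 140 ± 15.8 to 316 ± 32.5 (1.13). Of the 15 bins that lie in the body of 9030622O22Rik beyond 20 kb, 12 rose, with a median of 0.69, and of the 29 tested beyond its end 19 rose, with a median of 0.80. The bin with the U6 copy had 199 ± 88.0 and 222 ± 31.0, a log2 fold change of 0.22 that did not pass the threshold (adjusted p = 0.74 in limma). On the right the bin with Gm14108 rose from 644 ± 83.0 to 970 ± 93.7 (0.59, adjusted p = 0.0014 in limma).

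The 2 sides did not rise at the same distances throughout. Of the 17 mirrored pairs of bins, 6 rose on both sides, 4 on the left alone, 4 on the right alone and 3 on neither. The pairs with a rise on the right alone lay at 12 to 22 kb and 32 to 42 kb, and those with a rise on the left alone at 62 to 72 kb and 77 to 87 kb. On the right no bin beyond 62 kb passed the threshold, with log2 fold changes between 0.06 and 0.43. That a bin passed on one side and its mirror did not is no test of their difference, which the rings above give.

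**Figure D4:**
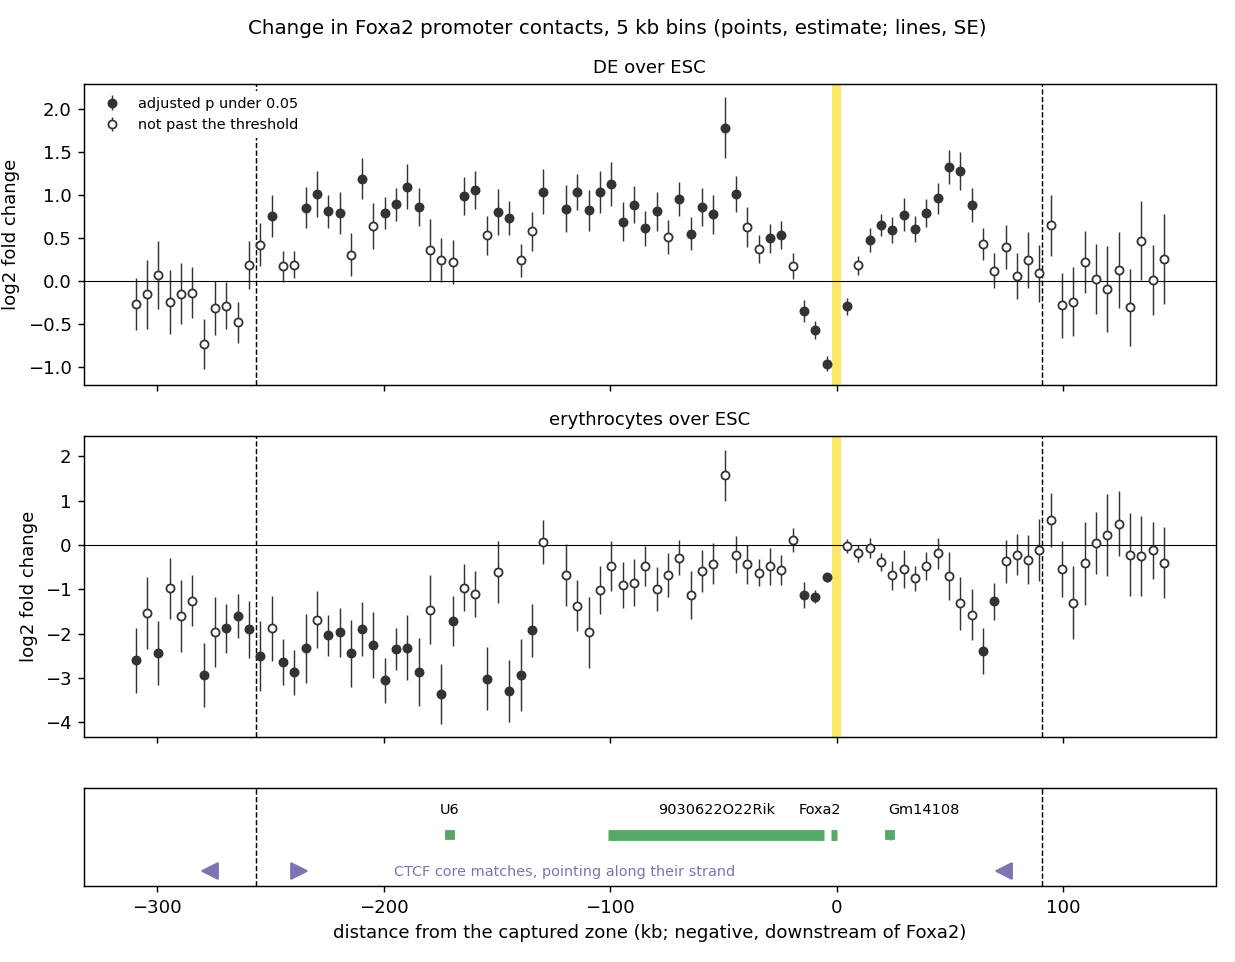
Log2 fold change of 5 kb bins in DE over ESC (upper panel) and erythrocytes over ESC (middle panel) against distance from the captured zone in kb, with SE as vertical lines and filled points for an adjusted p under 0.05 in limma. The lowest panel places the annotated genes and the CTCF core matches, and dashed lines mark the ends of the compartment. DE rises run from about 22 kb to 252 kb on the left and from 12 kb to 62 kb on the right, and erythrocyte losses gather on the far left.

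At both ends of the compartment contacts stepped down over 25 kb in ESC and DE, with no test run on the steps. The ends had been read from a contact profile of these data, so a step there follows from that choice. In erythrocytes the 25 kb inside and outside the left end had 14.2 ± 9.73 and 9.93 ± 1.16 (SD, n = 3) reads per 100000 and kb. In the 25 kb inside the left end DE had 88.4 ± 4.61 (SD, n = 3) reads per 100000 and kb and in the 25 kb outside it 30.0 ± 1.73, against 68.3 ± 4.82 and 37.9 ± 2.05 in ESC. Over 10 kb at that end ESC had no step, with 38.3 ± 7.38 inside and 42.3 ± 6.96 outside. At the right end the 25 kb inside and outside had 44.1 ± 1.54 and 16.7 ± 0.683 in DE and 38.5 ± 4.93 and 15.6 ± 2.52 in ESC. The left bin from 237 to 242 kb stood out among its neighbours in both cell types, with 669, 623 and 621 reads per 100000 in ESC and 792, 727 and 669 in DE. It differed little between them (log2 fold change 0.19, adjusted p = 0.60 in limma), as did the next bin outward, at 476 ± 93.3 and 529 ± 27.5 (SD, n = 3; 0.17, adjusted p = 0.71 in limma). Across the left end the straddling bin changed by 0.42 on the log2 scale (adjusted p = 0.37 in limma) and the first bins wholly outside it 0.19 and -0.48, none past the threshold. The bin that straddles the right end had 0.09 and the first wholly outside it 0.65, with overlapping libraries and adjusted p = 0.95 and 0.29 in limma.

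The core of the CTCF motif was searched on both strands over chromosome 2, where 0.243% of 441651 fragments hold it. The compartment held it in 2 of its 854 fragments, 0.234%, a like share. Both matches point into the compartment, and they are printed with the next match beyond the left end, which points away from it, each in the direction of its own strand with the core in capitals.
left 237.4 kb, plus strand, chr2:147633951-147633962: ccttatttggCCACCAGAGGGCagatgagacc
right 73.9 kb, minus strand, chr2:147947558-147947569: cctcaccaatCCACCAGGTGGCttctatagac
outside, left 276.5 kb, minus strand, chr2:147594855-147594866: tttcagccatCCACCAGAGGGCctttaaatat
By its base position the left match lies in the span of the bin from 237 to 242 kb, which stood out above. Bins take fragments by midpoint, however, and its fragment, chr2:147633593-147636604, is counted in the bin from 232 to 237 kb. That bin had 184 ± 35.2 reads per 100000 in ESC and 341 ± 80.2 in DE (SD, n = 3; log2 fold change 0.85, adjusted p = 0.0048 in limma). The reads of the bin that stood out thus do not include those of the fragment with the match. The right match lies in the bin from 72 to 77 kb, which had 176 ± 37.8 reads per 100000 in ESC and 232 ± 34.4 in DE (SD, n = 3; log2 fold change 0.39, adjusted p = 0.42 in limma). Binding of CTCF was not measured in these files.

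Of the 854 fragments 772 had a read and 698 had at least 10 over the ESC and DE libraries. In DE 73 of these 698 rose and 15 fell (limma, adjusted p under 0.05), where 6.20% of the 1209 fragments tested on chromosome 2 rose and 8.93% fell. These shares include the members, and of the 511 other fragments 2 rose and 93 fell. The median log2 fold change was 0.55 over members and 0.26 over all fragments tested. With all interactions as the total the latter was 0.13, so the level shifts with the total used. Members made up 698 of the 1209, so the median over all fragments holds their own rise and is no separate background. Scaled to chromosome 2 beyond 20 kb, 42 rose and 19 fell, a share of rises of 68.9% against 83.0%. The number of calls depended on the libraries, with 25, 32 and 24 rises without DE replicates 1, 2 and 3, and on the test, with 65 in edgeR, 19 in DESeq2 and 9 with all 3 cell types in the fit. With no minimum of reads only 1 of 767 members rose and 11 fell. None of the rises lay within 20 kb on the left, where 11 of 45 fell. Within 20 kb on the right 4 rose and 4 fell, and beyond 20 kb, on both sides, no fragment was called as lower.

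The fragments that fell clustered 5 kb from the zone on each side. On the left 10 of the 11 lay between 4.61 and 8.21 kb, across the start of 9030622O22Rik, and the other at 19.7 kb. On the right the 4 lay between 5.06 and 5.57 kb. The fragment that starts 310 bases upstream of the 9030622O22Rik start, at left 5.06 kb and printed above, had 268, 401 and 470 reads per 100000 in ESC and 93.2, 99.0 and 163 in DE, a log2 fold change of -1.61 (SE 0.24, adjusted p = 9.2e-06 in limma). Its neighbour with the forkhead match, 263 bases upstream, went from 190, 208 and 166 to 50.8, 68.3 and 133 (-1.16, SE 0.29, adjusted p = 0.0061 in limma). The third of the row, 158 bases upstream, went from 257, 444 and 276 to 97.5, 113 and 163 (-1.31, SE 0.24, adjusted p = 0.00018 in limma). In all 3 the ESC and DE libraries did not overlap. A fall with little spread between libraries was at left 6.11 kb, chr2:147865147-147865368, inside the transcript, from 569, 551 and 580 to 220, 225 and 217 (-1.32, SE 0.16, adjusted p = 4.6e-07 in limma).

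The 6 fragments with the largest fitted rises had between 1 and 8 reads in ESC over 3 libraries. They met the minimum of 10 reads through DE alone, the deeper group, and were picked for the size of the rise, so the ratios below are a description. The fragment chr2:147813478-147815215, left 57.0 kb and inside 9030622O22Rik, had 0, 2 and 0 reads in ESC and 8, 24 and 16 in DE. Pooled over libraries and scaled, DE had 10.4 times the contacts of ESC, with an exact 95% interval from 2.73 to 88.5 that covers counting error only. The fragment chr2:147674844-147675148, left 196 kb, had 1, 1 and 0 reads against 23, 15 and 9, a ratio of 10.2 (2.67 to 86.7). The fragment chr2:147789436-147791289, left 81.0 kb, had 0, 1 and 0 reads against 12, 9 and 9, a ratio of 13.0 (2.17 to 532). The fragment chr2:147828165-147829218, left 42.7 kb, had 1, 4 and 0 against 21, 26 and 11, a ratio of 5.04 (2.04 to 16.1). On the right, chr2:147919350-147919878 at 45.9 kb had 1, 7 and 0 reads against 16, 24 and 21, a ratio of 3.31 (1.58 to 8.01). The short fragment at 51.3 kb printed above, in the bin with the largest rise of the right side, had 0, 3 and 0 reads against 13, 12 and 9, a ratio of 4.92 (1.55 to 25.05).

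**Figure D5:**
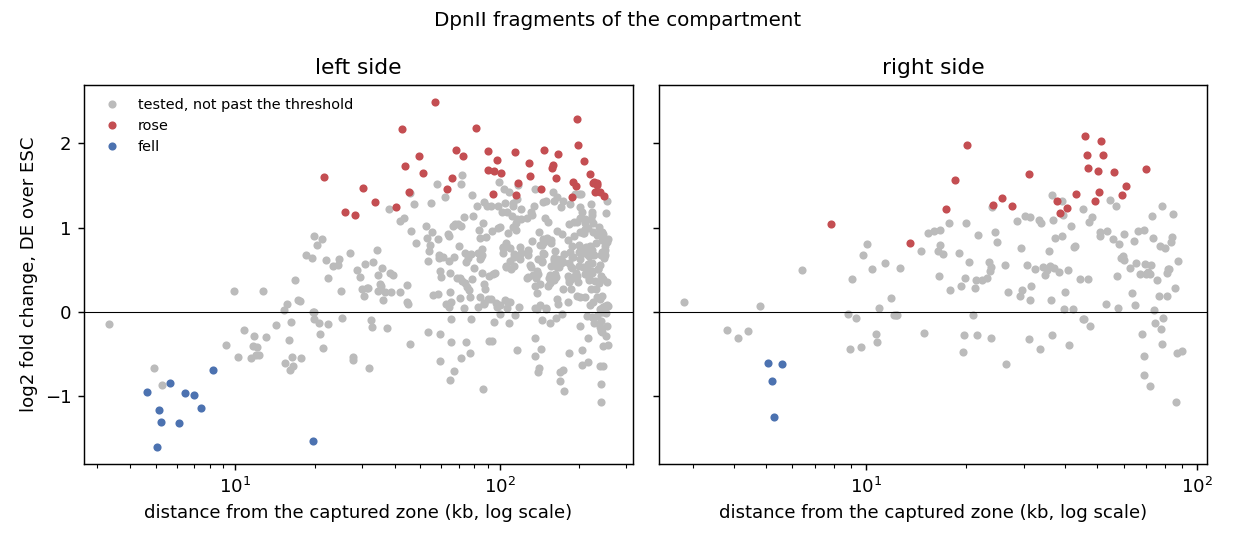
Log2 fold change in DE over ESC of each tested fragment against distance from the captured zone in kb on a log axis, left and right sides apart, with fragments past the threshold in limma set off from the rest. Falls cluster near 5 kb on both sides and rises begin beyond 20 kb on the left and at 7.84 kb on the right.

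Called fragments differed from the rest in length and base composition. The 73 that rose had a median of 788 bases and 41.4% GC, the 15 that fell 222 bases and 50%, the 610 tested with no call 306 bases and 43.4%, and all 854 members 260 bases and 42.9%. Longer fragments collect more reads, and the part of length in the calls was not tested beyond these values. Forkhead matches lay in 19.2% of the fragments that rose, 6.67% of those that fell and 7.49% of all members. T-box matches lay in 35.6%, 20.0% and 18.6%, and Smad matches in 54.8%, 13.3% and 28.0%. Per kb the densities in fragments that rose and in all members were closer, at 0.273 and 0.198 for forkhead, 0.614 and 0.606 for T-box, and 1.35 and 1.08 for Smad.

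In erythrocytes contacts were lower than in ESC mainly in the far left of the compartment. There the libraries had 1960, 2692 and 1714 reads per 100000 against 7284 ± 176 (SD, n = 3) in ESC, a log2 fold change of -1.80 (SE 0.16, adjusted p = 5.9e-06 in limma), and against DE -2.49 (SE 0.15, adjusted p = 2.4e-05 in limma). The near left, at 4567, 5486 and 4257, was lower than in ESC (-0.82, SE 0.12, adjusted p = 0.00021 in limma) and overlapped DE (-0.15, adjusted p = 0.37 in limma). The near right did not pass the threshold against either (adjusted p = 0.65 and 0.34 in limma). The middle right was lower than in ESC (-0.68, SE 0.15, adjusted p = 0.0055 in limma), while in the middle left the libraries overlapped ESC (-0.44, SE 0.18, adjusted p = 0.078 in limma).

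Of the 66 bins none was higher and 23 were lower in erythrocytes than in ESC (limma), where 28.0% of the 439 bins tested on the chromosome were lower. The median log2 fold change was -0.98 over member bins and -1.14 over all, so the members lay near the background of this comparison. Of the 23, 18 of 31 tested lay in the far left, 3 of 4 in the near left and 2 of 13 in the middle right, with none in the other windows. Within the body of 9030622O22Rik beyond 20 kb 0 of 15 bins were lower (median -0.57), and beyond its end 18 of 29 were (median -1.97). The former lie at 22 to 97 kb and the latter at 102 to 252 kb, so transcript and distance cannot be told apart here. Without ESC replicates 1, 2 and 3 the count was 12, 10 and 11, and without erythrocyte replicates 2 and 3, the libraries that stood apart, it was 29 and 24. Against DE 47 bins were lower and none higher, where 20.8% of 708 were lower, and without DE replicates 1, 2 and 3 the count was 25, 16 and 22, and without erythrocyte replicates 2 and 3 it was 57 and 48.

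The left bin from 197 to 202 kb had 312, 387 and 345 reads per 100000 in ESC, 678, 570 and 579 in DE and 49.8, 25.2 and 27.6 in erythrocytes, a log2 fold change over ESC of -3.06 (SE 0.51, adjusted p = 0.00090 in limma). The bin from 237 to 242 kb had 29.9, 176 and 82.9 (-2.87, SE 0.51, adjusted p = 0.0013 in limma). Its mean was 96.3, with neighbours at 46.8 and 77.7, against a mean of 638 in ESC with neighbours at 184 and 476. The fragment with the left CTCF core is counted in the neighbour at 46.8, which had 184 in ESC. The bin from 172 to 177 kb had only 2 reads in the 3 erythrocyte libraries against 58 in ESC, a pooled ratio of ESC over erythrocytes of 17.0 with an exact 95% interval from 4.49 to 143. On the right the bin from 62 to 67 kb had 129, 75.5 and 27.6 against 395 ± 46.2 in ESC (-2.40, SE 0.52, adjusted p = 0.0051 in limma). Between 2 and 90.701 kb the log2 of left over right in erythrocytes was 0.08, 0.09 and -0.40, below every ESC library (difference of means -0.35, exact two-sided permutation test, p = 0.1) and 0.10 above DE in the mean (exact two-sided permutation test, p = 0.5). Without erythrocyte replicate 3 the difference from ESC was -0.19. From 20 kb outward the difference from ESC turned to 0.24 (exact two-sided permutation test, p = 0.2).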

How the data were processed

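NG Capture-C was analysed at the Foxa2 promoter in ESC, DE and erythrocytes, 3 libraries each, grouped by cell type as the labels give it. Trim Galore and Bowtie are named in the submitters' processing notes, and Capture-C scripts, FourCSeq and DESeq2 in the study's methods; the sources used here give no versions and nothing on duplicates. The authors deposited a signal per DpnII fragment scaled to 100000 interactions per column, with coordinates in mm9. Both ends of 68959 of 68959 fragments fitted the GATC cuts of NCBIM37. In each column 100% of the values came out as whole reads (tolerance 0.05 read), which were recovered. Of the columns, 27 were used and 27 hold other viewpoints and were not. Without molecular identifiers reads can be PCR copies, so intervals and limits from counts cover counting error only.

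Reads were rescaled to 100000 on chromosome 2 and binned outward in 5 kb from 2 kb beyond the zone, by fragment midpoint. limma (3.58.1, R 4.3.3) ran on log2 of that value plus 10, a scale that understates the change of low features. A minimum of 10 reads, summed over the libraries of a comparison, was set, each fit held only its own 2 cell types, and Benjamini-Hochberg ran over all features of chromosome 2 (threshold 0.05). Windows were fitted together with the bins. The written design did not state whether the prior spread follows the level. It was set to do so after fits with both settings had been seen. edgeR 4.0.16 and DESeq2 1.42.0 on recovered reads were alternatives, as were other pseudocounts, scalings, bin sizes, ends, a minimum of none and each library left out. Ratios and shares used exact permutation tests, and sparse features exact conditional binomial intervals. The fits of DE against ESC over fragments and over 5 kb bins were tested on simulated data, and the windows, rings and erythrocyte comparisons were not. In the simulation 200 features were changed 4-fold, with 1 spread shared by all features, and limma recovered 89% among fragments and 91.5% among bins. Smaller changes, such as the median log2 fold change of 0.71 over member bins, were not simulated.

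The compartment, the gene and motif lists and the tests were chosen with earlier results of these data known. Named were the annotated genes and their bins, up to 10 bins and 6 fragments each way with the largest called change and no overlap of libraries, up to 5 bins for erythrocytes, the bins at the ends, and mirrors of gained bins. Bins and fragments with a match, or with overlap, that were named beside these were picked after their values were seen. The lowest chi-square ratio to its degrees of freedom between replicates was 1.14, for DE replicates 2 and 3 (chi-square test, p = 0.21). Other pairs of the same group lay up to 2.60, and the ESC pairs had p between 0.069 and 0.15 in that test. For such pairs the ratio does not show a spread beyond counting. No pair was counted as 1 library, as the labels name them apart.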

Additional observations from a re-analysis of the deposited data

How the results depend on the processing

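The difference between DE and ESC in log2 of left over right (-0.46) was -0.0054 with 20 kb left out around the zone, -0.76 from 2 to 20 kb alone and -0.53 with fragments of 200 to 1000 bases only. That between erythrocytes and ESC (-0.35) turned to 0.24 and was -0.74 under the first 2 of these. The share of the compartment rose in DE by 2.61 points with all interactions as the total, 9.75 with chromosome 2 beyond 20 kb and 16.2 within 2 Mb. Erythrocytes differed from ESC by -9.46 with chromosome 2 beyond 20 kb and by -5.81 within 2 Mb, where the libraries overlapped. The 88 calls among fragments became 32 with DESeq2, 11 with all 3 cell types in the fit, 27 with a constant prior spread, 12 with no minimum of reads and 41 with a pseudocount of 2. With no minimum of reads the rises went from 73 to 1 and the falls from 15 to 11. The 46 calls among bins became 23 of 33 bins of 10 kb, 2 with all 3 cell types in the fit, 0 with a constant prior spread (28 at an unadjusted p under 0.05) and 29 with no minimum; the 47 between erythrocytes and DE became 25 with a constant prior spread. With that prior the 4 called windows kept their log2 fold changes (-0.67, 0.67, 0.69 and 0.67) and 0 passed the threshold; the near right turned to -0.036 with all interactions as the total. Rings went from 0 to 4 calls with edgeR. Wider bins and left-out fragments mean fewer features; otherwise the cause was not tested.

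Leaving out each library gave between 36 and 97 calls among fragments, 31 and 46 among bins, 10 and 29 between erythrocytes and ESC and 16 and 57 between erythrocytes and DE. The 30 bins and fragments named for a called change kept their direction, and 74 of their 495 values lost the threshold. Among 20 values of bins named for their place, 3 near the right end, all close to 0, turned: the bins at 67 to 72, 77 to 82 and 87 to 92 kb had -0.011, -0.065 and -0.033 with all interactions as the total and -0.032, -0.089 and -0.054 with chromosome 2 beyond 20 kb, and between -0.085 and 0.29, -0.015 and 0.14, and -0.0021 and 0.24 with a library left out. Replicate numbers were shared between groups, and deviations of same-numbered DE and ESC libraries correlated at 0.09, -0.09 and -0.11 over 67 bins. These values show no pairing by number. They cannot exclude one either, as ESC replicates were not shown to differ beyond counting error. With the replicate block 108 fragments and 44 bins were called, 26 between erythrocytes and ESC, 50 between erythrocytes and DE, and 0 rings. Depth limits single fragments most: the smallest library, with 3618 interactions on chromosome 2, gives 27.6 per 100000 for 1 read.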
